A study of Mus musculus with 92 samples.

Results

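ER-Hoxb8 macrophages that carried a non-targeting control (NTC) guide were compared with the NTC progenitors of the same kind. The members were chosen by sample label: 3 libraries of NTC macrophages after 7 days of differentiation and 3 libraries of NTC progenitors, 6 of the 92 libraries of the series. The series, from mouse, measured messenger RNA by bulk sequencing in progenitors, monocytes, macrophages, microglia and transplanted microglia-like cells, with and without disruption of Adar1. Both groups descend from bone marrow of FVB mice heterozygous for Cas9, were immortalized with a retrovirus that carries ER-Hoxb8 and a neomycin marker, received a guide with no target in the genome, and were sorted for it, so the controls carry Cas9, the guide and the Hoxb8 fusion as well. Progenitors were kept in RPMI with 0.0005 mM beta-estradiol and 10 ng/mL GM-CSF, and macrophages were differentiated in DMEM with 10% serum and 30 ng/mL M-CSF. The loss of estradiol, the change of cytokine, the change of medium and the time in culture therefore cannot be told apart in this comparison. The library names carry NTC2 for all 3 progenitor libraries and for macrophage replicate 2, and NTC for macrophage replicates 1 and 3; the name of macrophage replicate 2 also marks it as a redo, without saying what was repeated. The methods list 1 non-targeting guide, and whether the names mark different lines is not stated; if they do, that difference is partly confounded with the comparison of macrophages and progenitors. Nothing in the labels says that the replicates came from separate cultures or clones, so the p-values measure the spread between these libraries, which may be technical.

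Hoxb8 fused to the estrogen receptor is active only while the ligand is present, and it then holds myeloid progenitors in a dividing, immature state. Without the ligand and with M-CSF, which signals through the receptor encoded by Csf1r, such progenitors leave the cell cycle and mature into adherent, phagocytic macrophages. Granulocyte-monocyte progenitors store serine proteases and myeloperoxidase in granules, whereas macrophages are rich in lysosomes, scavenger receptors and lysozyme.

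Levels are given as CPM, a gene's counts scaled to a common library total, rebuilt from the log2 values that the authors deposited and scaled between the 6 libraries, and triplets of values are in the order of replicates 1, 2 and 3. The table holds no counts. The lowest log2 value, a floor at which no counts can be read, is the same in 5 libraries (-3.43) and higher in macrophage replicate 2 (-3.09), as if that library had been normalized in another set; such a floor belongs to a set and does not give the depth of a library. Log2 fold changes (log2FC) are macrophages minus progenitors on log2(CPM + 0.1), tested with limma, which fits each gene and moderates its variance by that of the others, with p-values adjusted by Benjamini-Hochberg for the 10707 genes that passed a filter. This scale understates the change of genes near 0. That filter, on low values, required more than 1 CPM in 3 or more libraries. A differentially expressed gene (DEG) was one whose adjusted p lay under 0.05 and whose log2FC was 2 or more, or -2 or less. Where a gene is listed at 0 in every library of a group, its levels are given without a fold change. Unless it is said otherwise, a gene named with its values had no overlap between the groups, that is, all 3 macrophage libraries lay on one side of all 3 progenitor libraries.

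Within each group the libraries resembled each other, with Spearman correlations across genes of 0.98 to 0.99, against 0.69 to 0.73 between the groups; genes are not independent replicates. Some genes of brain cells nevertheless stood out in 4 of the 6 libraries. Snap25, a neuronal gene, stood at 4.7, 8.71 and 3.65 CPM in progenitors and 0, 1.67 and 0 CPM in macrophages, so that within its group only macrophage replicate 2 had a value above 0. Gfap, an astrocyte gene, showed the same order, with 3.26, 4.14 and 1.44 CPM and 0, 0.434 and 0 CPM. The sums of the neuronal, oligodendrocyte and endothelial lists did not. The defining markers Aqp4 of astrocytes and Cldn5 of endothelium were at 0 in all macrophage libraries, but under 1 CPM in every progenitor library as well. They were thus near the floor in both groups. Over 76 neuronal genes, of which 75 were in the table and 21 passed the filter on low values, the summed level was 259, 312 and 260.5 CPM in progenitors and 280.1, 362 and 385 CPM in macrophages, with Ywhah as the most abundant; 3 were called higher and 9 lower (median log2FC -1.61, but -0.12 to 0.07 without any 1 progenitor library and -2.73 without macrophage replicate 2). Among 34 oligodendrocyte genes the sums were 239, 277 and 223 CPM and 1043, 1182 and 1034 CPM, where Trf, the transferrin gene, made up most of the macrophage total (899.9, 979 and 832 CPM). Of its 9 tested members 1 was called higher and 4 lower (median log2FC -1.26). The 34 astrocyte genes summed to 66.4, 77.5 and 55.3 CPM and 54.6, 62.6 and 50.4 CPM, with Aldoc as the most abundant and 0 higher and 6 lower among 12 tested (median log2FC -1.94, but -0.48 to -0.35 without any 1 progenitor library). Endothelial and mural genes (16 members, Flt1 the most abundant) reached 93.7, 70.1 and 76.7 CPM and 50.2, 51 and 60.3 CPM, with none of the 3 tested members called by limma (median log2FC -0.41). With the filter set to a mean above 5 CPM the medians of the neuronal, oligodendrocyte and astrocyte lists were 1.15, 0.10 and 0.80, so their signs depend on the genes admitted. Over all genes not set aside, 11.5% were called higher and 11.7% lower, with a median log2FC of -0.06. The higher calls of the neuronal and oligodendrocyte lists were near the 11.5% of all genes.

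Haemoglobin RNA had the pattern of Snap25 and Gfap. Hbb-bs, a beta globin, was at 380.3, 288 and 237 CPM in progenitors and 0, 208 and 0.0337 CPM in macrophages, and Hba-a1, an alpha globin, at 265, 209 and 164 CPM and 0, 98.3 and 0 CPM. Globin levels in macrophage replicate 2 were thus near those of the progenitors, while replicates 1 and 3 were at or near 0. Of the 6 libraries, the 4 with this RNA are those whose names carry NTC2. It is not confined to them: progenitors with Adar1 guide 1 had, before scaling between libraries, Snap25 at 8.23, 4.14 and 4.19 CPM and summed haemoglobin at 611, 760.1 and 731 CPM, while their macrophages had haemoglobin at 0.314, 0.165 and 0.218 CPM. With the spread among NTC macrophages Hbb-bs was a DEG with all libraries and without macrophage replicate 2, but not when any other library was left out. Of 15 erythroid and megakaryocyte genes 7 were tested, 2 were called higher (Epor and Vwf) and 5 lower (4 globins and Alas2, an enzyme of haem synthesis), and the median log2FC was -5.04 (-8.73 without macrophage replicate 2). Where the brain and globin RNA came from, and its part in the results, was not tested; it was unequal between the groups. Genes of the brain lists, and genes above 1 CPM in fewer than 2 of 21 other cultured or marrow libraries, were set aside from counts of DEGs over all genes: 101 of the genes tested, of which 12 would have been higher and 53 lower. The globin genes were not set aside. Counts within a gene list include its members that were set aside. Without macrophage replicate 2 the count was 2083 DEGs, against 2457 with it, and 2002 genes were in both. The counts without any other library ran from 2053 to 2202; with 5 libraries the filter passes fewer genes that 1 group alone expresses.

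**Figure D1:**
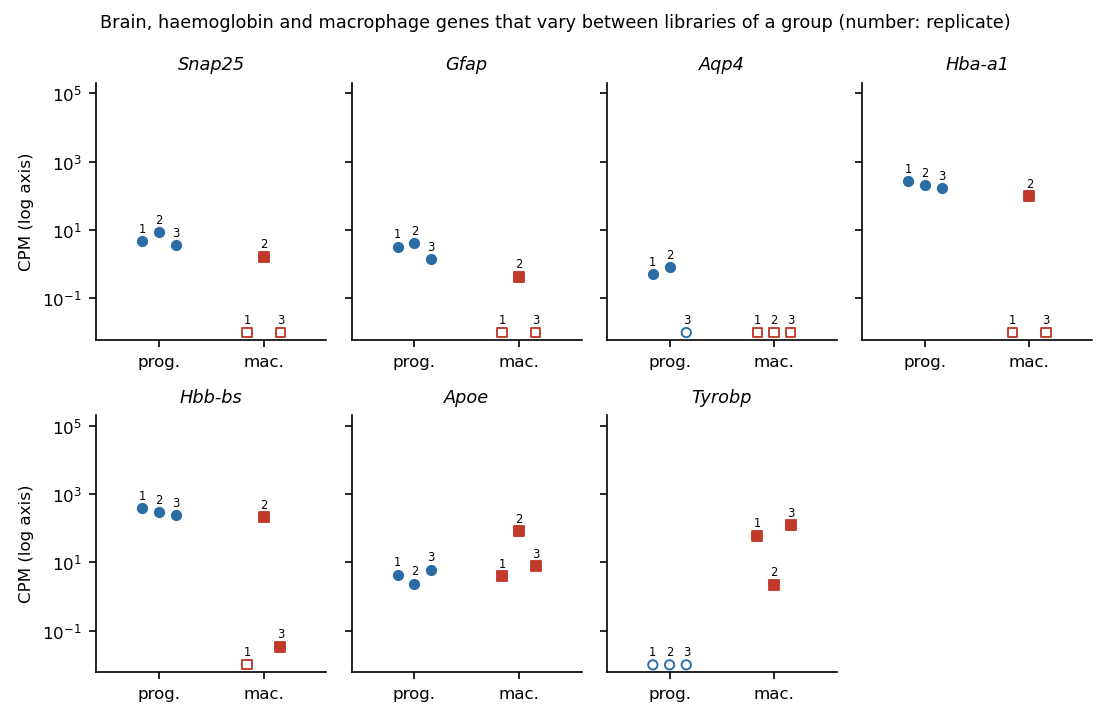
CPM (log axis) of 7 genes in each NTC progenitor library (prog., circles) and NTC macrophage library (mac., squares), with the replicate number above each point; open symbols at the bottom are values at or below 0.01. Snap25, Gfap, Hba-a1 and Hbb-bs are higher in all progenitor libraries and in macrophage replicate 2 than in macrophage replicates 1 and 3, Apoe is high only in macrophage replicate 2, and Tyrobp is lowest there within its group.

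Of the 10606 genes that were not set aside, 2457 were DEGs, or 23.2%, with 1215 higher in macrophages (11.5%) and 1242 lower (11.7%). With the adjusted p alone 7692 genes (72.5%) passed, and 8073 (76.1%) had groups that did not overlap, 3837 upward (36.2%) and 4236 downward (39.9%). The median log2FC over these genes was -0.06 and the median of its size, regardless of sign, was 1.00. The balance between higher and lower calls depends on the scaling. The 10 most abundant genes held 7.59% to 9.02% of progenitor CPM and 26.7% to 27.9% of macrophage CPM. Scaled by library totals alone, the median log2FC of all genes shifted by -0.44, and 34.2% of the DEGs were higher in macrophages, against 49.5% with the trimmed mean of log ratios used here. Medians of gene lists above and below are to be read beside the median of -0.06 for all genes, and counts of calls beside 11.5% higher and 11.7% lower. Since the samples are bulk, fewer cells of a type and less RNA per cell cannot be told apart for any gene.

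**Figure D2:**
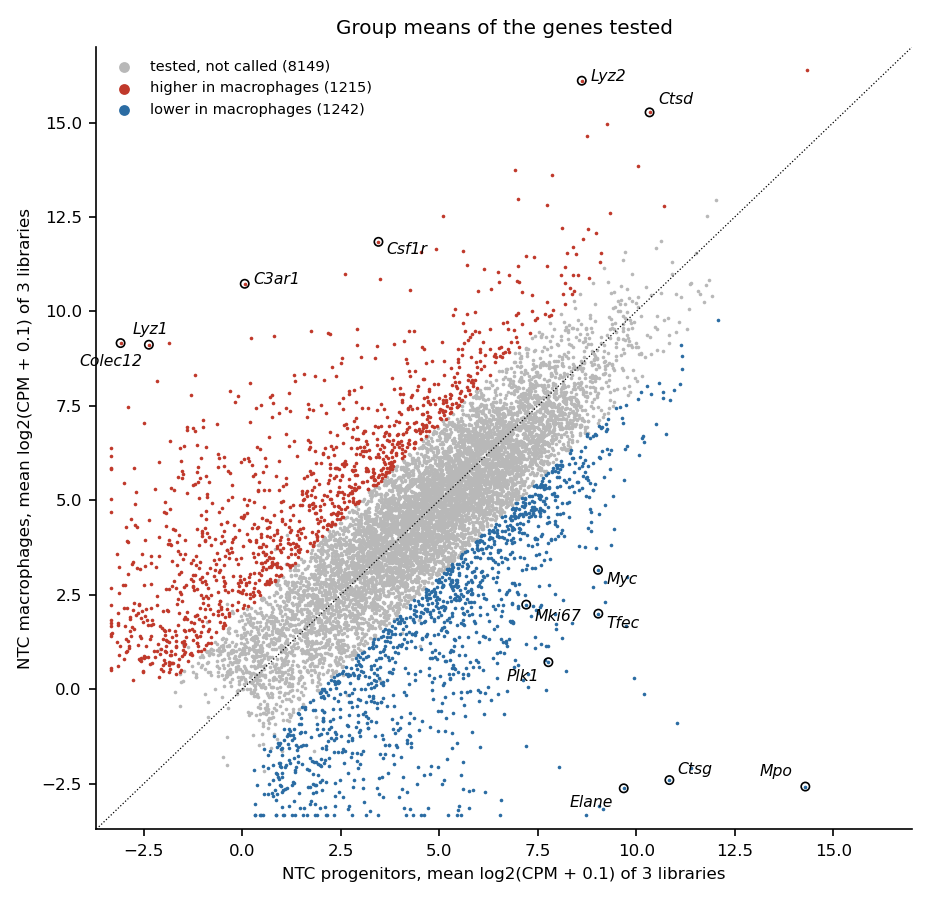
Mean log2(CPM + 0.1) of the 3 NTC macrophage libraries (y axis) against that of the 3 NTC progenitor libraries (x axis), 1 point for each gene tested and not set aside, with the dotted line marking equal means. The 1215 genes higher in macrophages are red and the 1242 lower genes blue; Mpo, Ctsg and Elane lie far below the line, and Colec12, Lyz1, C3ar1 and Csf1r lie far above the line.

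Granule proteins were among the largest losses. Mpo, which encodes myeloperoxidase, was at 25682, 18476 and 17043 CPM in progenitors, where it alone made up 2.03% to 3.00% of CPM, and at 0.238, 0 and 0.0402 CPM in macrophages (log2FC -16.87, adjusted p = 3.00e-08). Mpo was thus high in every progenitor library and under 1 CPM in every macrophage library. The 3 serine proteases that share these granules fell with it: Ctsg (cathepsin G) from 1839, 1961 and 1716 CPM to 0.14, 0.0578 and 0.0788 CPM (log2FC -13.25, adjusted p = 4.76e-09), Elane (neutrophil elastase) from 830.4, 873 and 766 CPM to 0.094, 0.0585 and 0.0397 CPM (log2FC -12.3, adjusted p = 5.09e-09) and Prtn3 (proteinase 3) from 1910.3, 2189 and 2162 CPM to 0.688, 0.43 and 0.271 CPM (log2FC -11.92, adjusted p = 1.88e-08). Replicates within a group differed little beside this gap. Ms4a3, a membrane protein of granulocyte-monocyte progenitors, stood at 2693, 3001 and 2459 CPM and 0.074, 0.171 and 0.176 CPM (log2FC -13.49, adjusted p = 5.09e-09). Serpinb1a, an inhibitor of these proteases, changed in the same direction, from 1314, 1231 and 1015 CPM to 0.635, 0.928 and 0.912 CPM (log2FC -10.33, adjusted p = 9.79e-09). Later neutrophil genes, placed in the same list, started from lower levels: Ngp was at 13.4, 27 and 22.6 CPM in progenitors and listed at 0 in all macrophage libraries (adjusted p = 3.18e-07), and S100a9 was at 10.4, 25.1 and 26.2 CPM and 0, 0 and 0.0367 CPM. In both, progenitor replicate 1 was the lowest of its group.

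Across the 24 granule genes, 21 were tested, 3 were higher and 17 lower, with a median log2FC of -5.24, or -4.53 without Ngp, whose macrophage values are all 0. The 3 higher members were both lysozymes and the gelatinase Mmp9. Lyz2 stood at 802, 289 and 262 CPM in progenitors and 81053, 68954 and 62973 CPM in macrophages (log2FC 7.49, adjusted p = 8.22e-07), which is 5.62% to 6.65% of macrophage CPM. Progenitor replicate 1 was above the other progenitors for Lyz2, as it was for Csf1r and several other macrophage genes below. Lyz1, the neighbouring lysozyme gene of similar sequence, was at 0.0478, 0.259 and 0.037 CPM and 645, 538 and 496 CPM (log2FC 11.49, adjusted p = 8.02e-08); reads of such similar genes can be assigned to either, so its separate level is uncertain. Slpi, a secreted protease inhibitor, was the tested member that was not called, at 471, 872 and 713 CPM and 428, 388 and 336 CPM. Ly6g, Padi4 and Retnlg did not pass the filter.

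Elane and Prtn3 lie side by side in the genome and moved together, so their promoters are shown, from RefSeq (build GRCm38.p6, 250 bases before to 50 after the annotated start, 5′ to 3′ on the strand of the gene). Elane is at chr10:79886062-79886361 and Prtn3 at chr10:79879417-79879716, both on the + strand. Capitals mark GAGGAA or its reverse complement TTCCTC, a core that PU.1 and other ETS factors can bind. It was searched on both strands in promoters of this length and was present in 28.3% of all 32851 promoters, 30.6% of the tested genes with an entry, and 10 of 21 granule genes with an entry (47.6%). In Elane it began at position -85 and in Prtn3 at position -95 from the start. Entries cover 79.1% of the tested genes, under the 80% asked of a list here, so a check against them is void and their shares are given, here and below, without a comparison. A match is a description of the letters and not evidence of binding.
Elane: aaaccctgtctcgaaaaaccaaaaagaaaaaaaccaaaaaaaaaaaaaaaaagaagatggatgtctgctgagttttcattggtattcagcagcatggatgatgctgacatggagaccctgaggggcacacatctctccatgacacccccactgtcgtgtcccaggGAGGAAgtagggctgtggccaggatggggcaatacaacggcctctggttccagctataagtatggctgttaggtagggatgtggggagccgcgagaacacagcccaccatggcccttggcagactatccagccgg
Prtn3: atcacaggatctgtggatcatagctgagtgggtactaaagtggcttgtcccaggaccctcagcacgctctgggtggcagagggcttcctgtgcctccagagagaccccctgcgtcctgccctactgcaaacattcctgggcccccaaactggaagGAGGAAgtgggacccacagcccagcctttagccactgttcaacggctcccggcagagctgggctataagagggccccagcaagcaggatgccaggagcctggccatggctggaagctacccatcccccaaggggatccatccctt

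Of 28 progenitor and stem cell genes, 27 were in the table, 13 were tested, 1 was higher and 8 were lower (median log2FC -4.26; -4.17 without Myb). Myb, a transcription factor of immature blood cells, stood at 83.6, 94.7 and 99.7 CPM in progenitors and was listed at 0 in all macrophage libraries (adjusted p = 2.54e-08). Kit, the receptor for stem cell factor, fell from 50.02, 24.9 and 33.4 CPM to 0, 0.573 and 0 CPM (log2FC -7.52), with progenitor replicate 1 the highest. Mycn, a relative of Myc, went from 51.8, 33.2 and 54.5 CPM to 0, 0.059 and 0 CPM (log2FC -8.61), and Gfi1, a repressor needed for granulocytes, from 15.6, 17.4 and 18.9 CPM to 0.0469, 0 and 0 CPM (log2FC -7.26). Each of these 4 genes was under 1 CPM in every macrophage library. Plac8, a small cysteine-rich protein, fell from 974, 1059.8 and 903 CPM to 0.765, 2.55 and 0.723 CPM (log2FC -9.63, adjusted p = 2.77e-07). Cd34, the classical stem cell antigen, was low in both groups and overlapped, at 1.09, 0.977 and 0.98 CPM and 1.54, 1.00 and 1.37 CPM, with a direction that depends on the scaling. Il6st, the signalling subunit of the IL-6 receptor family, was the higher member, at 2.96, 4.19 and 7.07 CPM and 33.5, 53.8 and 46.2 CPM (log2FC 3.27). Flt3, Gata2, Meis1, Hoxa7, Hoxa9 and Hoxa10 were among the 14 members below the filter. The median of the list was -2.03 with no filter on low values and -7.39 with a mean CPM above 5. Leaving out any progenitor library raised the median to between 0.13 and 0.31, because genes present in progenitors alone then have only 2 libraries and fail the filter; the same filter moved the granule median to between -1.65 and -1.45.

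Hoxb8 itself, which the immortalizing vector supplies, was measured at 1.38, 0.589 and 2.11 CPM in progenitors and 0.345, 0.491 and 1.33 CPM in macrophages. The groups overlapped and no difference was called (log2FC -0.86, standard error 0.57, adjusted p = 0.203); whether the reference transcripts capture the fusion was not tested.

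Macrophage identity was read from 13 genes that the study itself chose, so their direction is a check of the labels and not an independent result. All 13 were tested and had groups that did not overlap, against 76.1% of all genes, 11 were called higher and 0 lower, and the median log2FC was 4.1. Csf1r, the receptor for M-CSF, was at 19.6, 6.28 and 10.4 CPM in progenitors and 3910.5, 3793 and 3341 CPM in macrophages (log2FC 8.38, adjusted p = 2.54e-07). Trem2, a receptor for lipids and cell debris, rose from 6.05, 5.59 and 6.36 CPM to 2110.4, 2176 and 1838 CPM (log2FC 8.38, adjusted p = 4.76e-09). The replicates of each group were close together for Trem2, whereas progenitor replicate 1 held the most Csf1r of its group. Emr1, which encodes F4/80, was at 117, 57.2 and 50.6 CPM and 2468, 2236 and 2054 CPM (log2FC 5.01), and Cd68, a lysosomal glycoprotein, at 157, 195 and 157 CPM and 2881, 2875 and 2541 CPM (log2FC 4.03). Cx3cr1, the fractalkine receptor, went from 1.15, 0.412 and 0.713 CPM to 216, 281 and 227 CPM (log2FC 8.22). Smaller gains, below the fold limit, were measured for Tlr4, the receptor for bacterial lipopolysaccharide, from 197, 177 and 158 CPM to 413, 357 and 353 CPM (log2FC 1.08), and for Ptprc, the gene of CD45, from 406, 336 and 305 CPM to 1233, 1018 and 1046 CPM (log2FC 1.66). Progenitors thus expressed both already. The summed level of the 13 genes was 1339, 1228 and 1065 CPM in progenitors and 17034, 16206 and 14624 CPM in macrophages.

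Most receptors and opsonins of phagocytosis rose as well. Of 30 genes 29 were tested, 26 were higher and 0 lower, and the median log2FC was 4.56 (3.58 without Cd5l and Tyrobp, which are listed at 0 in progenitors). C3ar1, the receptor for the complement fragment C3a, had the smallest adjusted p of the named genes, with 0.918, 0.88 and 1.04 CPM in progenitors and 1721, 1752 and 1634 CPM in macrophages (log2FC 10.67, standard error 0.12, adjusted p = 2.37e-09). Lgals3, a secreted galectin, was at 27.4, 21.1 and 21.9 CPM and 2822, 3424 and 2873 CPM (log2FC 7.01), and Cd36, a scavenger receptor for oxidized lipids, at 1.85, 0.502 and 0.127 CPM and 100.2, 147 and 149 CPM (log2FC 7.66). These gains were far larger than the spread between libraries. Cd5l, a secreted protein that binds lipids, was listed at 0 in progenitors and stood at 62.1, 58.6 and 52.8 CPM in macrophages (adjusted p = 3.81e-08). The Fc receptor Fcgr1 rose from 2.07, 3.93 and 3.85 CPM to 82, 95.1 and 69.5 CPM (log2FC 4.65), while the inhibitory Fcgr2b moved little, from 261, 268 and 239 CPM to 451, 383 and 309 CPM (log2FC 0.56). The 3 chains of C1q were all higher, for example C1qb with 1.88, 1.29 and 1.05 CPM and 32.1, 57.1 and 31.9 CPM (log2FC 4.73). Macrophage replicate 2 had the highest C1qa, C1qb and C1qc of its group, with C1qc at 9.52, 25.9 and 11.7 CPM. Tyrobp, the adaptor of Trem2, was listed at 0 in all progenitor libraries and spread widely in macrophages, at 59.9, 2.22 and 122 CPM (adjusted p = 0.000522); it was listed at 0 in the NTC macrophages at 0 uM baricitinib as well. Marco, a scavenger receptor, was below the filter. With the NTC macrophages at 0 uM baricitinib, a further set described with the cell cycle genes, C1qb was lower than in progenitors, at 0.495, 0.372 and 0.141 CPM (log2FC -1.9, not a DEG), while C1qc was still higher, at 8.33, 3.79 and 3.38 CPM (log2FC 4.08), and C1qa was below the filter.

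GAGGAA or TTCCTC was found in 15 of the 25 promoters of this list with an entry (60%). The share for all promoters is given above, and no comparison was made. Fcgr1 and C1qb, as genes that rose with the receptor set, are shown in the same way as the granule genes that fell; Fcgr1 is at chr3:96293920-96294219 and C1qb at chr4:136886151-136886450, both on the - strand, and the match began at -55 and -30.
Fcgr1: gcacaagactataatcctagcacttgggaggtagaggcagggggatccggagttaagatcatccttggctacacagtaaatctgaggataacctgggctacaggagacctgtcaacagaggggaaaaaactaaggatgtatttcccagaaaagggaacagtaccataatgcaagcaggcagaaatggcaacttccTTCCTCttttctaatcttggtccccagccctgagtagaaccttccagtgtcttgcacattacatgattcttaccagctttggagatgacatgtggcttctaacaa
C1qb: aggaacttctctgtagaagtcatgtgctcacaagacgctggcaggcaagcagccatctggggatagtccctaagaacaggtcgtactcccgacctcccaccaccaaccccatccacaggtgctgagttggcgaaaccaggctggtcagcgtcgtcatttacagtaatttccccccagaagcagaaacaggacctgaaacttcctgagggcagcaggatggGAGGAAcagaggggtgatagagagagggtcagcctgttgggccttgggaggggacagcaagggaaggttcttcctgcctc
The same letters are thus present near genes that rose and genes that fell.

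**Figure D3:**
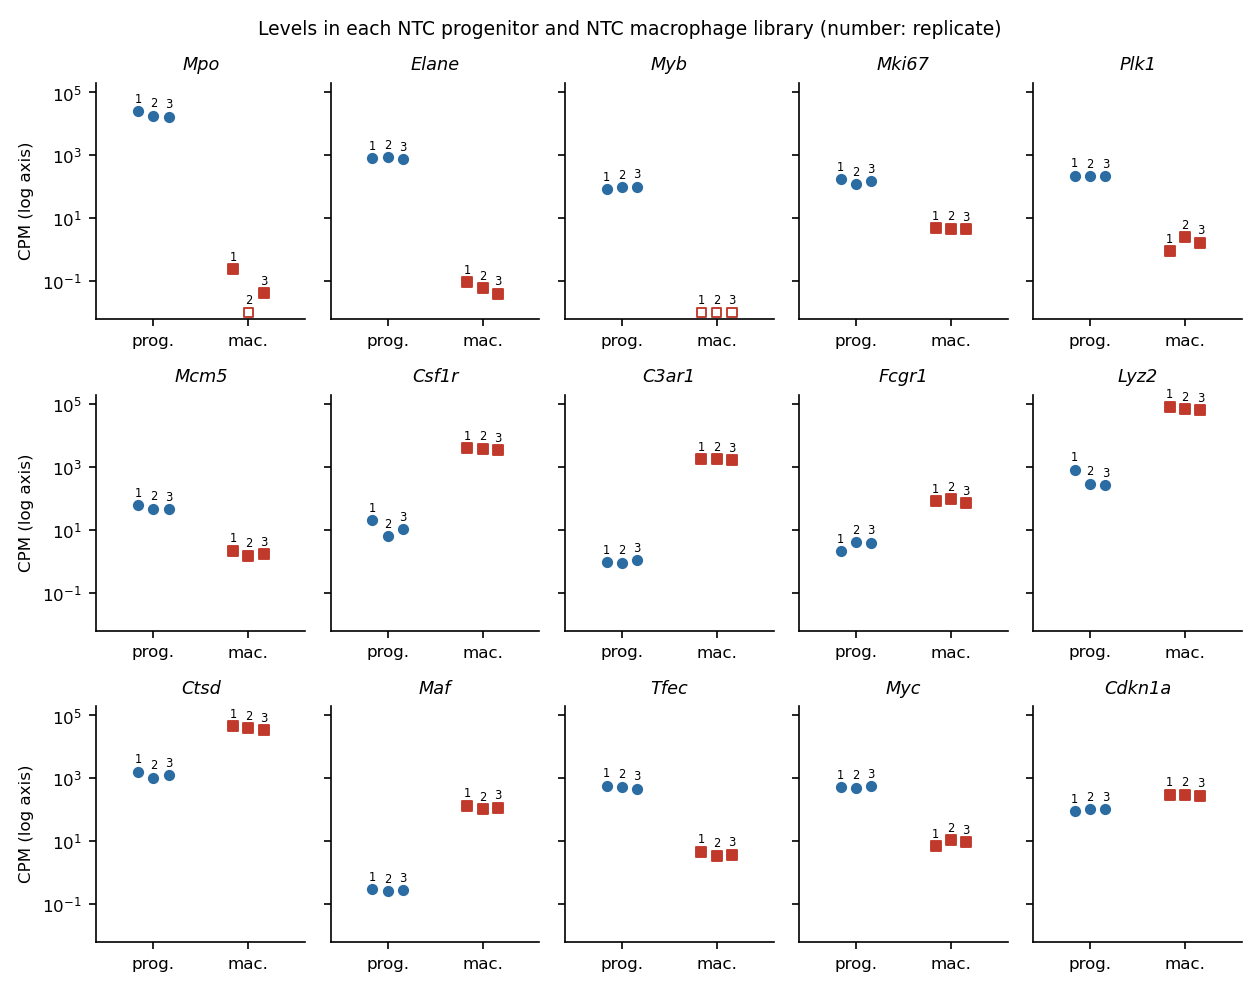
CPM (log axis) of 15 genes in each NTC progenitor library (prog., circles) and NTC macrophage library (mac., squares), with the replicate number above each point; open symbols at the bottom are values at or below 0.01. The groups are separate for all 15 genes, with Mpo, Elane, Myb, Mki67, Plk1, Mcm5, Tfec and Myc lower in macrophages and Csf1r, C3ar1, Fcgr1, Lyz2, Ctsd, Maf and Cdkn1a higher.

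Genes of cell division fell together. Of 46 mitosis genes 45 were tested and all 45 were called lower, against 11.7% of all genes, with a median log2FC of -5.55; their summed level was 6635, 6556 and 6129 CPM in progenitors and 174, 176 and 179 CPM in macrophages. Mki67, the proliferation marker Ki-67, was at 174, 121 and 153 CPM and 4.91, 4.58 and 4.4 CPM (log2FC -4.97, adjusted p = 9.76e-08). Plk1, a kinase that drives entry into mitosis, fell from 224, 214 and 217 CPM to 0.878, 2.45 and 1.68 CPM (log2FC -7.05, adjusted p = 3.57e-07), and Cdc20, an activator of the anaphase-promoting complex, from 248.9, 264 and 238 CPM to 2.03, 3.00 and 4.13 CPM (log2FC -6.37). The 3 libraries of each group lay close together and the gap was far wider than their spread. Ccnb2, a mitotic cyclin, was at 187, 206 and 182 CPM and 1.78, 2.29 and 2.58 CPM (log2FC -6.39), and Kif11, a spindle motor, at 228, 212 and 186 CPM and 1.4, 2.74 and 2.46 CPM (log2FC -6.55). The centromeric histone Cenpa kept more of its level, at 141, 190.1 and 172 CPM and 22.6, 26.8 and 27.3 CPM (log2FC -2.7).

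Promoters of mitotic genes often hold a CHR element, TTTGAA, near a CCAAT box. TTTGAA (or TTCAAA on the other strand) was present in 17.9% of all promoters, 14.9% of the tested genes with an entry, and 26 of 37 mitosis genes with an entry (70.3%). CCAAT (or ATTGG) was present in 37.4%, 43.8% and 28 of 37 (75.7%), and both together in 6.95%, 6.19% and 23 of 37 (62.2%). The promoters of 4 members whose values are given above are shown, with both motifs in capitals; Plk1 (chr7:122159185-122159484) and Kif11 (chr19:37376132-37376431) are on the + strand, Cdc20 (chr4:118437294-118437593) and Ccnb2 (chr9:70421505-70421804) on the - strand.
Plk1: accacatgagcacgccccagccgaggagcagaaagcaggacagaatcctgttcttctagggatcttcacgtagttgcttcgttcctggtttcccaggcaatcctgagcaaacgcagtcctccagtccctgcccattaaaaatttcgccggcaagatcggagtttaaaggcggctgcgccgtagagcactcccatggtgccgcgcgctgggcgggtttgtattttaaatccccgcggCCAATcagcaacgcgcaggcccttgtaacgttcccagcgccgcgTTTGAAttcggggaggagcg
Cdc20: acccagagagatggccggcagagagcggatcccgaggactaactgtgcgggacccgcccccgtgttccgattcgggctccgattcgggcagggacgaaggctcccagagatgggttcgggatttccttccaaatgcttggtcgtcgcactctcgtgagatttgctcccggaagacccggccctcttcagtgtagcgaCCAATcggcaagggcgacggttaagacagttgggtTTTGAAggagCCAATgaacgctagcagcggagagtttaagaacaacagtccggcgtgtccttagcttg
Ccnb2: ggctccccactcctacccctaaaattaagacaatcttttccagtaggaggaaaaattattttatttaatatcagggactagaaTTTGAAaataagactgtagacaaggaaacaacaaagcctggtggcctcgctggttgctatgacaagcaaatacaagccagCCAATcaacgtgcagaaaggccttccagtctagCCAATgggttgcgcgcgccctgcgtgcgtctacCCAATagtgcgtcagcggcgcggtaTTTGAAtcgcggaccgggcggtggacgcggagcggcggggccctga
Kif11: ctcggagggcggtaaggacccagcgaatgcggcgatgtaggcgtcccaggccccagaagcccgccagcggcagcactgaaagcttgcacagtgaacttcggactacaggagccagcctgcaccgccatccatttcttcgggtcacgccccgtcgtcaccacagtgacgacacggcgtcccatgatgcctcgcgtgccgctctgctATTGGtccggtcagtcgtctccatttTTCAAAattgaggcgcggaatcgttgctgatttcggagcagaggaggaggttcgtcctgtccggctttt
In Plk1 the CHR began at 31 and the CCAAT box at -14 from the start, in Cdc20 the CHR at -18 and the CCAAT boxes at -53 and -8. Ccnb2 held the CHR at -167 and 5 and CCAAT boxes at -87, -54 and -21, and Kif11 held both in the reverse orientation, at -19 and -45.

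DNA replication genes followed with a smaller fall: of 48 tested, 42 were lower and 1 was higher (median log2FC -3.66). Rrm2, a subunit of ribonucleotide reductase, was at 719, 996 and 913 CPM and 6.66, 9.03 and 7.88 CPM (log2FC -6.78, adjusted p = 3.36e-08), and Mcm5, part of the replicative helicase, at 61, 46.4 and 45.5 CPM and 2.15, 1.49 and 1.7 CPM (log2FC -4.76, adjusted p = 3.62e-07). Pcna, the sliding clamp, which also serves in repair, changed less, from 293, 334 and 272 CPM to 136, 159 and 132 CPM (log2FC -1.08), and was not a DEG. E2f1, a transcription factor for these genes, went the other way, from 10.5, 9.57 and 10.6 CPM to 50.3, 47.2 and 43 CPM (log2FC 2.19, adjusted p = 2.51e-06). Of 19 brakes and D cyclins with their partners, 17 were tested, 6 were higher and 4 lower (median log2FC 0.68). With scaling by totals the median was 0.25. The cyclins switched: Ccnd2 fell from 284, 279 and 273 CPM to 27.5, 34 and 30.5 CPM (log2FC -3.18) while Ccnd1 rose from 1.43, 2.46 and 1.69 CPM to 41.4, 89.97 and 75.8 CPM (log2FC 5.1). Cdk6, their kinase partner, fell from 682, 622 and 633 CPM to 60.3, 54.8 and 56.8 CPM (log2FC -3.49). Cdkn1a, the gene of the inhibitor p21, rose from 88.5, 104 and 104 CPM to 302, 301 and 282 CPM (log2FC 1.58, adjusted p = 3.83e-06), below the fold limit, and Cdkn1b, the gene of p27, from 5.18, 3.8 and 5.73 CPM to 22, 31.8 and 22.7 CPM (log2FC 2.35). Rb1, the retinoblastoma protein gene, was at 10.9, 7.59 and 8.62 CPM and 112, 60.03 and 106 CPM (log2FC 3.31), and the antiproliferative Btg1 at 11.4, 16.9 and 21.9 CPM and 193, 122 and 159.7 CPM (log2FC 3.26). Cdkn1b and E2f1 fell under the fold limit with scaling by totals. Each of these brakes was higher in all 3 macrophage libraries than in any progenitor library.

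The size of the fall in cell cycle genes was not the same in another set of NTC macrophages of the series, those at 0 uM of the JAK inhibitor baricitinib, from a separate experiment. Put in place of the macrophages above, they gave a median log2FC of -1.7 for mitosis genes, with 13 of 45 called lower, and of -0.99 for replication genes, with 2 of 48 lower. Mki67 was at 91.2, 132 and 109 CPM in them and was not a DEG, Pcna was at 274, 376 and 367 CPM (log2FC 0.12), and Plk1 was at 33, 55.2 and 42.3 CPM and still lower than in progenitors (log2FC -2.41). For Mki67 and Pcna these macrophages overlapped the progenitors. Levels given for this set were scaled with the progenitors, without the macrophages above. Mcm5, Rrm2, Kif11, Ccnd2, E2f1 and Rb1 were not DEGs with these macrophages either. The 2 sets of macrophages were not tested against each other, and experiment and sequencing cannot be told apart from culture. Granule genes (-5.34), ribosome biogenesis genes (-2.09), lysosomal genes (1.72) and macrophage identity genes (3.94) had medians of the same sign with either set.

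Many genes that build ribosomes were lower as well. Of 38 genes for ribosome biogenesis and the MYC network, all tested, 20 were lower and 1 higher (median log2FC -2.02). Myc itself fell from 519, 501 and 549.6 CPM to 6.95, 10.9 and 9.13 CPM (log2FC -5.87, adjusted p = 6.21e-08). Nucleolar proteins such as Ncl, from 2074, 2273 and 2272 CPM to 295, 259.8 and 252 CPM (log2FC -3.04), and Nop56, from 786, 847 and 887 CPM to 79.1, 85.9 and 79.5 CPM (log2FC -3.36), moved the same way. Mxd4, which competes with MYC for its partner MAX, was the higher member. It was at 5.25, 3.62 and 5.42 CPM and 40.5, 27.1 and 31.3 CPM (log2FC 2.77). With the macrophages at 0 uM baricitinib its log2FC was 1.00 and it was not a DEG. Max changed little (log2FC -0.37). The E-box CACGTG, which MYC and MAX bind, reads the same on both strands. It was present in 7.15% of all promoters, 12.2% of tested genes with an entry, and 10 of the 32 members with an entry (31.2%). In the lysosomal list below, where no member was called lower, the share was 30.95%. Nop2, a nucleolar methyltransferase (241, 219.8 and 246 CPM in progenitors, 61.5, 58.5 and 53.7 CPM in macrophages), and Wdr43, a ribosome assembly factor (353, 438 and 336 CPM and 57.7, 52.8 and 61.9 CPM), are shown with the E-box in capitals, at -60 and 18 from the start. They lie at chr6:125131633-125131932 and chr17:71615965-71616264, both on the + strand.
Nop2: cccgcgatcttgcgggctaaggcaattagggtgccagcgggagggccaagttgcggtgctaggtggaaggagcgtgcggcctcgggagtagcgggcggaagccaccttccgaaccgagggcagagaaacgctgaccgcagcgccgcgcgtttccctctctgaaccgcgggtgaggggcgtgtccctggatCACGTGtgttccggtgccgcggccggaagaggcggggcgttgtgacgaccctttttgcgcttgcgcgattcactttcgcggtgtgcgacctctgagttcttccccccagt
Wdr43: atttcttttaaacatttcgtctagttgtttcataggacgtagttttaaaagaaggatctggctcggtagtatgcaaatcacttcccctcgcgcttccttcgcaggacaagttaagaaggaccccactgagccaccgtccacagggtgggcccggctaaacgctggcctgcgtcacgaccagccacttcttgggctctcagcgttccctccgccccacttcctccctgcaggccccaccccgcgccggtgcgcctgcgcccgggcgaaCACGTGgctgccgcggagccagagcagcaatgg

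Some genes of the integrated stress response and of sterol and fatty acid synthesis were lower. Of 20 genes of the integrated stress response, many of which encode amino acid enzymes, 19 were tested, 9 were lower and 1 higher (median log2FC -1.92). Phgdh, which commits carbon to serine, fell from 836, 823 and 931 CPM to 3.22, 3.65 and 2.45 CPM (log2FC -8.09, adjusted p = 1.51e-08), Psat1, the next enzyme, from 412, 529 and 447 CPM to 16.8, 19 and 18.4 CPM (log2FC -4.67), and Shmt2, which moves the carbon into folate, from 482, 436 and 535 CPM to 31.1, 48.6 and 38.6 CPM (log2FC -3.63). Atf4, the factor at the centre of this response, fell by less, from 158, 209 and 272 CPM to 53, 59.3 and 52.5 CPM (log2FC -1.92). Ddit3, another of its factors, was slightly higher in macrophages, at 17.2, 13.5 and 13.5 CPM and 28.7, 26.8 and 25.1 CPM (log2FC 0.87). Of 30 genes for sterol and fatty acid synthesis 28 were tested, 13 were lower and 0 higher (median log2FC -1.82). Idi1, an enzyme of the isoprenoid steps, fell from 379, 510.0 and 439 CPM to 22.8, 17.3 and 18.3 CPM (log2FC -4.5). Srebf2, the factor that controls many of these genes, overlapped between the groups, at 26.9, 28.7 and 50.1 CPM and 21, 35.9 and 23.5 CPM (log2FC -0.37). Glycolysis stayed near the median of all genes, with 22 of 23 genes tested, 1 higher, 1 lower and a median log2FC of -0.09 (-0.52 with scaling by totals, 0.42 with the macrophages at 0 uM baricitinib). Its lower member was Slc16a1, a lactate transporter, at 178, 149 and 238 CPM and 3.16, 6.99 and 12.4 CPM (log2FC -4.8).

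Lysosomal genes rose. Of 53 genes 52 were tested, 30 were higher and 0 lower (median log2FC 2.12), and the summed level went from 12775, 11008 and 10656 CPM in progenitors to 180658, 159337 and 151352 CPM in macrophages. Ctsd, an aspartic protease, was at 1631, 1054 and 1263 CPM and 45828, 38860.5 and 34622 CPM (log2FC 4.93, adjusted p = 2.43e-07), Ctsb, a cysteine protease, at 504, 418 and 375 CPM and 27373, 26018 and 23908 CPM (log2FC 5.91) and Psap, the precursor of lipid-presenting saposins, at 883, 488 and 543 CPM and 35911, 29183 and 31278 CPM (log2FC 5.7). Ctss, a cathepsin of antigen-presenting cells, rose from 46.1, 31.9 and 26.4 CPM to 6627, 5910.4 and 5382 CPM (log2FC 7.45). Gpnmb, a glycoprotein of lysosomes under lipid load, was at 327, 196 and 197 CPM and 13931, 12151 and 11843 CPM (log2FC 5.76). The groups were apart in 47 of the 52, against 76.1% of all genes. Promoter entries were found for 42 of the 53 members (79.2%), about the coverage of the tested genes and fewer than 80%, so a check of their promoters is void; the E-box was in 13 of the 42 (30.95%).

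The MiT/TFE factors, which bind promoters of lysosomal genes, exchanged members. Tfec fell from 577, 536 and 470.4 CPM to 4.63, 3.47 and 3.7 CPM (log2FC -7.04, adjusted p = 1.94e-08). Mitf rose from 5.65, 5.13 and 4.76 CPM to 104, 106 and 111 CPM (log2FC 4.35, adjusted p = 8.02e-08), Tfe3 from 17.9, 10.2 and 19.8 CPM to 96.5, 115 and 113 CPM (log2FC 2.81) and Tfeb from 3.14, 3.82 and 4.23 CPM to 18.6, 19.5 and 16.6 CPM (log2FC 2.27). All 4 were DEGs (Tfeb not with scaling by totals or with the macrophages at 0 uM baricitinib), 3 higher and 1 lower.

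Genes of lipid handling were mixed, with 25 of 26 tested, 11 higher, 1 lower and a median log2FC of 1.12. Abca1, a cholesterol exporter, rose from 0.179, 0.0403 and 0.21 CPM to 66.8, 56.5 and 72.2 CPM (log2FC 8.14; only 1.27, 1.59 and 0.65 CPM, below the filter, in the macrophages at 0 uM baricitinib), Lpl, which frees fatty acids from lipoproteins, from 75.7, 40.9 and 46.8 CPM to 1971, 2869 and 2405 CPM (log2FC 5.5), and Plin2, a coat protein of lipid droplets, from 245, 206 and 191 CPM to 2331, 2512 and 2287 CPM (log2FC 3.48). Apoc2, a cofactor of Lpl, was at 33.8, 32 and 25 CPM and 3744, 3059.9 and 2914 CPM (log2FC 6.74). Apoe stood apart from this group: it was at 4.39, 2.37 and 6.06 CPM in progenitors and 3.89, 80.3 and 7.55 CPM in macrophages, so that the groups overlapped and only macrophage replicate 2 was high. Without that library the list's median was 0.56, and with the macrophages at 0 uM baricitinib it was -0.092. Iron and oxidative stress genes had 18 of 19 tested, 6 higher and 1 lower (median log2FC 0.82; 0.045 with the other macrophages). Tfrc, which imports iron-loaded transferrin, fell from 930.0, 782 and 756 CPM to 43.9, 47.1 and 47.4 CPM (log2FC -4.15), whereas Slc11a1, which exports iron from phagosomes, rose from 4.42, 7.26 and 5.87 CPM to 469, 436 and 406 CPM (log2FC 6.22) and Hmox1, which breaks down haem, from 48.1, 32.7 and 37.8 CPM to 390.4, 382 and 317 CPM (log2FC 3.21). Fth1, the ferritin heavy chain, was higher in all macrophage libraries but spread among them, at 1122, 951 and 1107 CPM and 6906, 14090.1 and 33159 CPM.

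**Figure D4:**
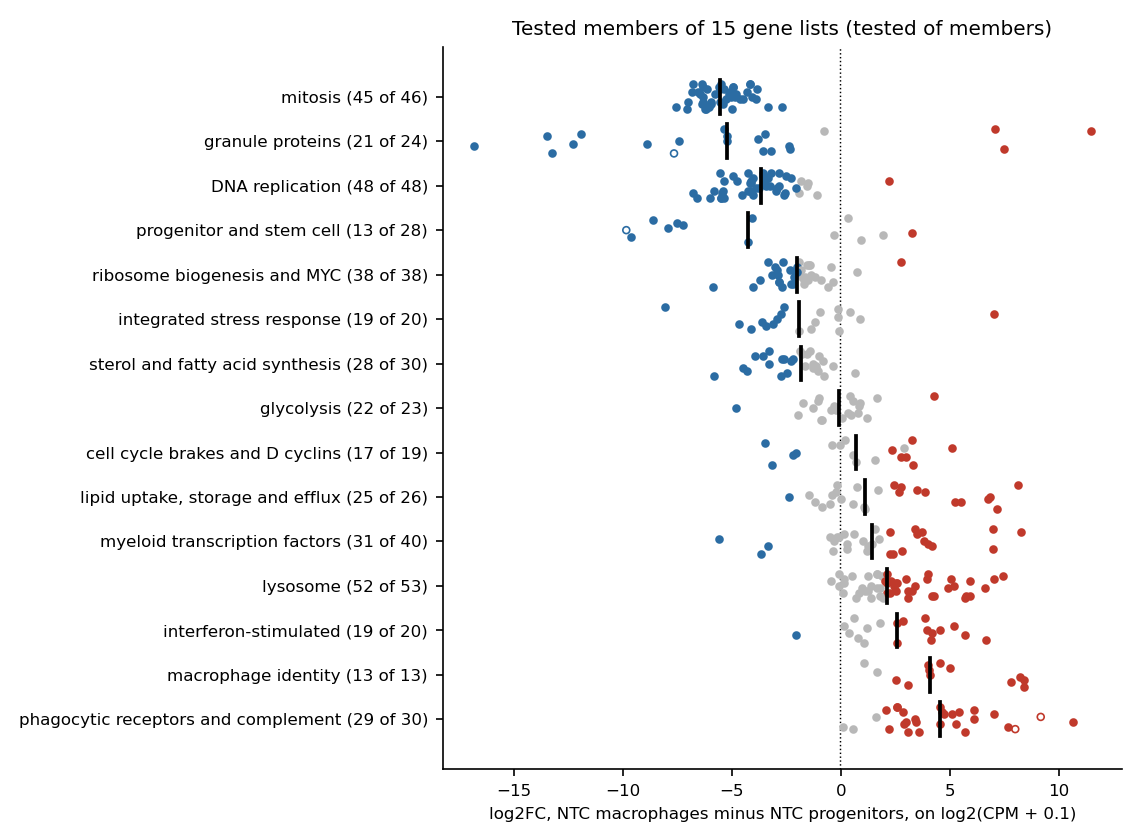
Log2FC (NTC macrophages minus NTC progenitors) of the tested members of 15 gene lists, 1 point per gene; red members were called higher, blue lower and grey neither, and open points have a group listed at 0, so that their position depends on the value of 0.1 added. Black bars are list medians and the dotted line is the median of all genes, -0.06; the mitosis list lies wholly below 0, with a median of -5.55, and the phagocytic list has a median of 4.56, or 3.58 without its 2 open points.

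Of 40 transcription factors of the myeloid line 39 were in the table and 31 tested, 13 were higher and 3 lower, against 11.5% and 11.7% of all genes (median log2FC 1.42). Maf, a factor of mature macrophages that restrains their division, was at 0.29, 0.258 and 0.28 CPM in progenitors and 136, 102 and 115 CPM in macrophages (log2FC 8.28, adjusted p = 2.99e-08). Irf8, a factor of the monocyte fate, rose from 10.8, 8.37 and 13.8 CPM to 105, 109.6 and 159 CPM (log2FC 3.49), and Irf5, a factor of inflammatory genes, from 11.2, 9.1 and 11.4 CPM to 147, 189 and 174 CPM (log2FC 3.99). The groups were far apart for each. The inhibitors of helix-loop-helix factors exchanged places. Id1 fell from 117, 94.5 and 107 CPM to 1.4, 2.69 and 2.45 CPM (log2FC -5.59). With the macrophages at 0 uM baricitinib its log2FC was -1.62 and it was not a DEG. Id2 rose from 2.96, 2.57 and 1.83 CPM to 350.5, 287 and 318 CPM (log2FC 6.98). Spi1, which encodes PU.1, rose modestly, from 11.6, 12.4 and 10.4 CPM to 33.4, 29.5 and 29.7 CPM (log2FC 1.42, adjusted p = 4.44e-05), below the fold limit. The groups were apart in 25 of the 31 tested members, against 76.1% of all genes, and Cebpa, a factor of the granulocyte line, was below the filter.

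Among 32 growth factor receptors and feedback genes 29 were tested, 13 were higher and 4 lower (median log2FC 1.29, and 2.12 to 2.23 without any 1 progenitor library). Cish, an inhibitor induced by GM-CSF and other STAT5 cytokines, fell from 101, 89.97 and 108 CPM to 0.326, 1.25 and 0.337 CPM (log2FC -7.3, adjusted p = 1.45e-06), as did Socs2, from 32.7, 36.9 and 36.6 CPM to 0.517, 0.925 and 0.953 CPM (log2FC -5.34), and Pim1, a kinase induced by the same route, from 7.14, 27.4 and 17.9 CPM to 0.29, 0.312 and 0.88 CPM (log2FC -4.83). Of the GM-CSF receptor chains, neither of them a DEG, Csf2ra was at 18.4, 17.1 and 15.6 CPM and 21.8, 22.3 and 31.4 CPM (log2FC 0.54, and 1.71 with the macrophages at 0 uM baricitinib) and Csf2rb at 112, 105 and 135 CPM and 293, 308 and 258 CPM (log2FC 1.29, and 0.19 with those macrophages). Csf3r, the G-CSF receptor, rose from 26.7, 14.9 and 15 CPM to 446, 381 and 370.4 CPM (log2FC 4.45, and 2.07 with those macrophages). The survival genes Mcl1 and Bcl2l1 rose by 2.65 and 2.45 on the log2 scale. Of 26 chemokine receptors and adhesion genes 23 were tested, 5 were higher and 3 lower, against 11.5% and 11.7% of all genes (median log2FC 0.52, and 0.088 with scaling by totals). Ccr2, a receptor of monocytes, rose from 1.58, 2.49 and 2.72 CPM to 178, 159 and 160.3 CPM (log2FC 6.17), while Ly6c2, a surface antigen of monocytes and progenitors, fell from 1299, 1123 and 1124 CPM to 121, 88.7 and 75.5 CPM (log2FC -3.66). The groups were apart in 19 of the 23, against 76.1% of all genes.

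Of 37 cytokine and chemokine genes 23 were tested, 10 were higher and 4 lower (median log2FC 1.39, or 1.65 without Il12a). Spp1, osteopontin, rose from 193, 148 and 114 CPM to 2698, 3205 and 2688 CPM (log2FC 4.27), and Ccl6, a chemokine of myeloid cells, from 249.1, 79.2 and 64.4 CPM to 2242, 1935 and 1817 CPM (log2FC 4.2). Il12a was low in progenitors, at 2.14, 2.92 and 1.98 CPM, and listed at 0 in macrophages. Ccl3 and Ccl4, chemokines of activated cells, overlapped, since progenitor replicate 1 lay below the macrophages and the other progenitors above them, with Ccl3 at 79.7, 292 and 281 CPM and 180.3, 174 and 156 CPM. Leaving out any macrophage library brought the median to between -0.19 and -0.16, because genes above 1 CPM in macrophages alone then fail the filter; without progenitor replicate 2 it was 2.35, and the macrophages at 0 uM baricitinib gave -0.17.

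The 20 interferon-stimulated genes were also chosen by the study. Of 19 tested, 11 were higher and 1 lower (median log2FC 2.59; 1.1 to 1.23 when 1 macrophage library was left out). Levels remained modest: Ifit3, an antiviral effector, was at 0.234, 0.0574 and 0.205 CPM in progenitors and 28.9, 26.8 and 22 CPM in macrophages (log2FC 6.68, adjusted p = 6.99e-07), and Irf7, the factor that amplifies interferon, at 0.749, 0.653 and 0.935 CPM and 19.8, 21.3 and 19.9 CPM (log2FC 4.55). Cxcl10, a chemokine that interferons induce, went down, from 3.36, 4.07 and 4.28 CPM to 0.92, 1.07 and 0.633 CPM (log2FC -2.06). It missed the fold limit with 0.5 or 1 CPM added in place of 0.1, and without progenitor replicate 2 or macrophage replicate 3. Immediate early genes had 10 of 16 tested, 5 higher and 0 lower (median log2FC 2.04, or 1.3 without progenitor replicate 1); Atf3, a stress-induced factor, rose from 1.8, 1.09 and 2.05 CPM to 144, 256 and 293 CPM (log2FC 7.03), and Fos from 3.21, 29.3 and 39.5 CPM to 103, 167 and 144 CPM (log2FC 3.11), with progenitor replicate 1 well below the other progenitors; without that library Fos missed the fold limit. Of 14 genes of MHC class II and co-stimulation 7 were tested, 3 were higher and 0 lower (median log2FC 1.5, and 2.48 and 2.37 without progenitor replicate 1 or 2). Cd86, a ligand for T cells, was at 0.488, 0.631 and 0.313 CPM and 47.9, 44 and 41.6 CPM (log2FC 6.31), and Cd74, the invariant chain, at 4.6, 4.36 and 3.22 CPM and 74.4, 95.3 and 63.7 CPM (log2FC 4.22), whereas the class II chains H2-Aa, H2-Ab1 and H2-Eb1 were below the filter.

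Genes of other lineages were mostly too low to test. Of 15 dendritic cell genes 4 were tested and 3 were higher. Among them was Clec10a, a lectin also found on macrophages, at 19.6, 34.2 and 33.7 CPM and 447, 385 and 414 CPM (log2FC 3.87). The median log2FC of the 4 tested genes was 3.17. It ran from 0.87 with no filter on low values to 3.44 with scaling by totals. Of 17 genes of mast cells, basophils and eosinophils 2 were tested and both were lower: Ms4a2, a chain of the IgE receptor, was at 5.24, 3.87 and 4.01 CPM in progenitors and listed at 0 in macrophages, and Siglecf fell to less than 1 CPM (median log2FC of both -3.85, which depends on the 0.1 CPM added, and -2.23 without Ms4a2). Both could pass the filter only through the progenitor libraries, so no other direction was open to them. Without any 1 progenitor library neither passed it. Of 19 lymphoid genes 1 was tested (log2FC 0.34) and of 12 stromal genes 1 (log2FC 0.39); neither was called, and with scaling by totals they were -0.094 and -0.033. Of 11 osteoclast genes 6 were tested, 4 were higher and 1 lower (median log2FC 4.07, and 1.87 to 1.95 without any 1 macrophage library); Ctsk, a collagenase of osteoclasts, was at 0.234, 0.208 and 0.181 CPM and 19.5, 17.6 and 18 CPM (log2FC 5.91), while Itgb3, an osteoclast integrin chain, fell from 6.82, 3.68 and 6.03 CPM to 0.844, 0.609 and 0.664 CPM (log2FC -2.76), and Dcstamp, Calcr and Acp5 were below the filter. Of 12 microglia genes 10 were tested, 8 were higher and 0 lower (median log2FC 2.84), but most stayed low: P2ry12, a receptor for nucleotides, was at 0.624, 0.633 and 0.206 CPM and 4.82, 5.18 and 5.67 CPM (log2FC 3.28), and Fcrls was highest in macrophage replicate 2, at 8.25, 19.8 and 6.63 CPM; in the macrophages at 0 uM baricitinib both were below 1 CPM and below the filter. Tmem119, a membrane protein used as a microglia marker, was not called, at 79.6, 51.4 and 54.1 CPM and 37.6, 47.1 and 36.7 CPM (log2FC -0.59, and 1.2 with the macrophages at 0 uM baricitinib), and Sall1 was below the filter. Of 5 sex-linked genes 4 were in the table, and the 1 tested, Kdm5d, overlapped (log2FC -0.34). Of 14 genes of ependyma and choroid plexus 2 were tested and 1 was lower (median log2FC -0.78); the median was above 0 without any 1 progenitor library (0.51 to 0.67) and with the macrophages at 0 uM baricitinib (0.72).

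The rule for naming genes took the 12 largest log2FC in each direction among DEGs with no overlap and a mean of at least 10 CPM in the higher group, and it also named genes outside the lists. In the upward direction Colec12, a scavenger receptor of the collectin family, was at 0.0631, 0 and 0 CPM in progenitors and 599, 551 and 570.0 CPM in macrophages (log2FC 12.25, adjusted p = 1.35e-08). Ahnak, a very large scaffold protein, was at 0.427, 0.109 and 0.0942 CPM and 586, 514 and 625 CPM (log2FC 11.01, adjusted p = 9.55e-08), and Emp1, a membrane protein of epithelia and leukocytes, at 0, 0.0403 and 0.0702 CPM and 169, 205 and 159 CPM (log2FC 10.37). All 3 were under 1 CPM in every progenitor library. Ms4a7, a membrane protein of macrophages, rose from 0.415, 0.386 and 0.228 CPM to 367, 278 and 315 CPM (log2FC 9.51), Ifitm6, of the interferon-induced transmembrane family, from 0, 0.166 and 0.326 CPM to 323, 287 and 254 CPM (log2FC 10.32), and Gpr137b, a lysosomal membrane protein, from 0, 0.404 and 0.0139 CPM to 116, 126 and 159.7 CPM (log2FC 9.53). Il7r, the receptor for IL-7, was under 0.1 CPM in progenitors and at 59.3, 54.5 and 56.8 CPM in macrophages. Myof, which acts in membrane repair, and Sirpb1a, of the signal-regulatory family, were listed at 0 in progenitors and reached 78, 86.7 and 86.1 CPM and 77.5, 72.7 and 65.9 CPM (adjusted p = 2.54e-08 and 2.99e-08). Downward, the mucin gene Muc13 fell from 672, 573 and 472 CPM to 0, 0 and 0.0408 CPM (log2FC -12.3, adjusted p = 1.09e-08) and Gria3, a glutamate receptor subunit, from 348, 228 and 229 CPM to 0, 0.102 and 0.593 CPM (log2FC -10.09). Gria3 is best known in neurons; it is not in the brain lists and was not set aside. The predicted genes Gm2016 (531, 628 and 463 CPM in progenitors, 0, 0.0594 and 0 CPM in macrophages) and Gm5662 (416, 510.4 and 362 CPM, listed at 0 in macrophages) may have near-identical copies among which reads were split, so their levels are uncertain.

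The same differentiation was also sequenced in ER-Hoxb8 cells without a guide, which the study describes as 3 independent lines. Their titles name an FVB Cas9 mouse and do not say whether it was heterozygous. There were 3 progenitor and 3 macrophage libraries, and the question was whether the change differed. A fit of the 12 libraries tested the change in NTC cells minus that in the cells without a guide, over 10993 genes not set aside, and 9 genes (0.0819%) passed with a difference of at least 2 on the log2 scale. With the replicate number as a block 3 of the 9 passed, Ngp, S100a9 and Cd5l; with a block for the unguided lines alone, added after the data were seen, 656 passed, the 9 among them. Whether the numbers mark the lines is not stated. NTC and unguided libraries may come from different normalization sets of the authors, and differences between sets could not be told apart from differences between lines. The unguided progenitor libraries stood apart from each other: on the scale of the 12 libraries Mpo was at 19.1, 6.15 and 2231 CPM in replicates 1, 2 and 3, Csf1r at 196, 1269 and 8.1 CPM and Mki67 at 10.6, 135 and 111 CPM. Replicate 3 alone held much Mpo and little Csf1r, as the NTC progenitors did (24057, 17644 and 15536 CPM and 18.4, 6.00 and 9.52 CPM). Without that library 1497 genes passed, without unguided macrophage replicate 3 it was 179, and without unguided progenitor replicate 2 it was 21. In unguided macrophages Mki67 was at 113, 108 and 13.5 CPM, against 4.95, 4.54 and 4.42 CPM in NTC macrophages, but the difference in its change was not called (-4.88 on the log2 scale, adjusted p = 0.0886). Nor was it called for Csf1r (5.63, adjusted p = 0.128), Lyz2 (4.24, adjusted p = 0.25) or Myc (-2.89, adjusted p = 0.12). List medians for NTC and unguided changes in this fit were -5.45 and -0.33 for mitosis, 2.22 and 1.09 for lysosome, and -5.14 and -1.94 for granule proteins. Within the granule list 4 of the 21 tested members were among the 9 genes.

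**Figure D5:**
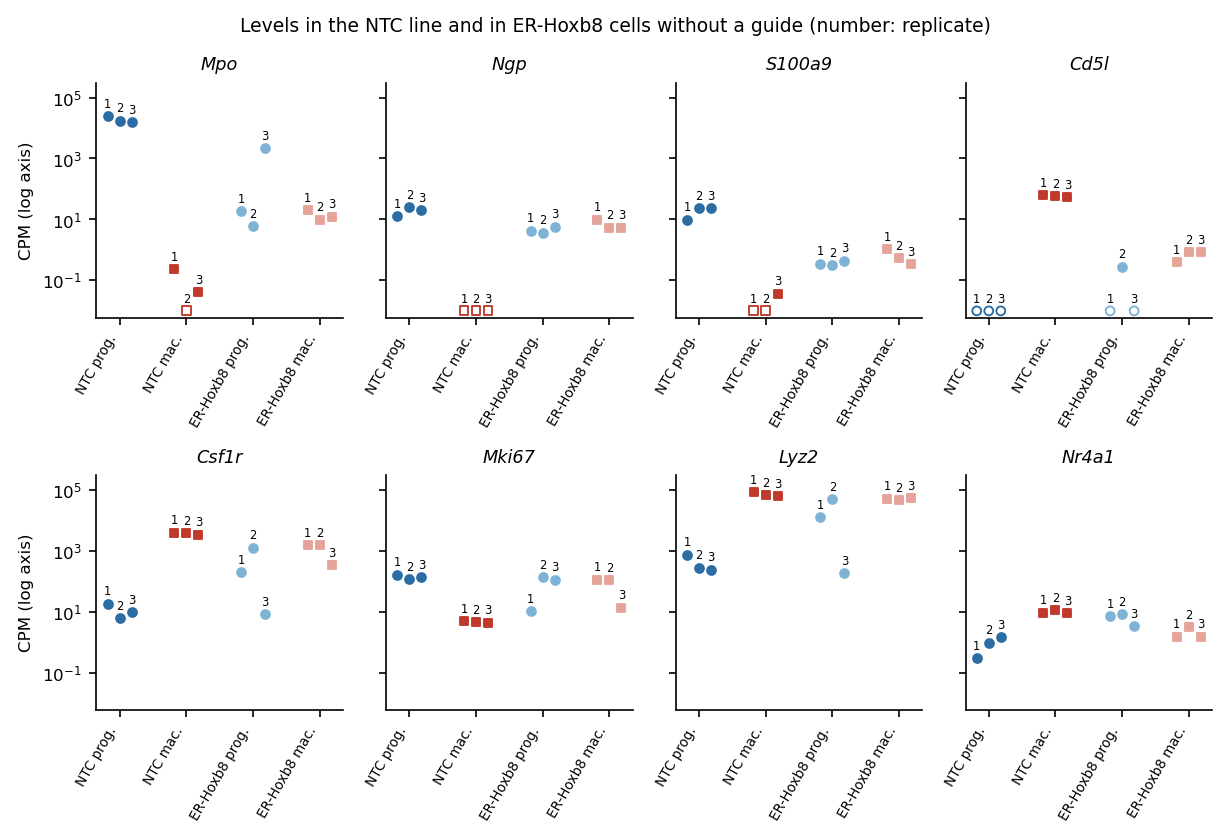
CPM (log axis) of 8 genes in the 12 libraries, NTC progenitors and macrophages (dark symbols) and ER-Hoxb8 progenitors and macrophages without a guide (pale symbols), with the replicate number above each point; open symbols at the bottom are values at or below 0.01. Mpo and Ngp stay detectable in unguided macrophages and are at or near 0 in NTC macrophages, and unguided progenitor replicate 3 has the highest Mpo and the lowest Csf1r and Lyz2 of its group.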

How the data were processed

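The authors trimmed reads with fastp, assigned them with Kallisto 0.46.0 to mouse transcripts (their notes name GRCm39), summed them by gene with tximport, normalized with edgeR's TMM and deposited log2 CPM. CPM were rebuilt for the 6 libraries as 2 to the power of the value minus 2 to the power of the library's lowest value, and scaled together by a trimmed mean of log ratios (a share of 0.3 of the ratios and 0.05 of the levels trimmed at each end). The table holds 29956 genes and no counts, so library depths are not given.

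Genes above 1 CPM in at least 3 libraries were tested on log2(CPM + 0.1) with limma 3.58.1 in R 4.3.3 (empirical Bayes with trend, Benjamini-Hochberg). Brain genes, by 5 lists and by 21 other libraries, were set aside from counts over all genes but not from counts within lists. Figures were drawn with matplotlib 3.10.9 in Python 3.11.15. Promoters came from RefSeq; 8466 of the 10707 tested genes had an entry.

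The genes named are the 12 with the largest log2FC in each direction among DEGs with no overlap and a mean of at least 10 CPM in the higher group, and members of 36 gene lists: the defining or best known and those with the largest change. The members and lists were chosen with earlier results of these data known. Alternatives were 22 for this comparison and 27 for the comparison with unguided cells: pseudocounts, filters, fold limit, scalings, deposited values, weights, trend, replicate block, genes set aside, leaving out each library and, for the former, other NTC macrophages and a fit with the Adar1 groups. Setting erythroid and megakaryocyte genes aside, and the block for the unguided lines alone, were added after the data were seen.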

Additional observations from a re-analysis of the deposited data

Results flagged for a closer look

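The change from progenitor to macrophage differed between NTC cells and ER-Hoxb8 cells without a guide in 9 genes, by a limma fit of 12 libraries that tested the difference itself. Of these, Gsr, Atp7a and Card6 fall outside the rule for naming genes and were chosen after their values were seen. The sets may have been normalized apart by the authors, so line and set cannot be told apart, and no cause was tested. Differences are on the log2 scale, NTC minus unguided, with levels of replicates 1, 2 and 3.

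The granule gene Mpo had 24057, 17644 and 15536 CPM in NTC progenitors and 0.24, 0 and 0.0403 CPM in NTC macrophages, against 19.1, 6.15 and 2231 CPM and 20.3, 9.85 and 12.5 CPM in the unguided cells (difference -14.53, adjusted p = 0.0496). Only 1 unguided progenitor library, replicate 3, held high Mpo. For Ngp, another granule gene, the NTC levels were 12.5, 25.8 and 20.6 CPM and listed at 0 in all macrophages, and the unguided levels were 4.27, 3.71 and 5.75 CPM and 9.94, 5.44 and 5.38 CPM (difference -8.11, adjusted p = 0.000121). S100a9, part of calprotectin, was at 9.73, 24 and 23.8 CPM and 0, 0 and 0.0368 CPM in NTC cells and 0.354, 0.318 and 0.447 CPM and 1.08, 0.524 and 0.345 CPM in unguided cells (difference -7.88, adjusted p = 0.00183). Camp, the cathelicidin gene, was at 8.08, 21.2 and 15.7 CPM and 0.457, 0.232 and 0.153 CPM, and at 2.05, 1.27 and 2.2 CPM and 2.12, 1.56 and 1.01 CPM without a guide (difference -5.04, adjusted p = 0.0318). In these 4 genes the NTC groups were apart, with progenitors higher, and the unguided groups overlapped.

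Gsr, glutathione reductase, fell in NTC cells from 278, 267 and 245 CPM to 6.11, 5.21 and 4.15 CPM and in unguided cells from 127, 92.8 and 202 CPM to 22.8, 38.3 and 41.1 CPM (difference -3.65, adjusted p = 0.0109). Cd5l was listed at 0 in NTC progenitors and at 62.6, 58 and 53 CPM in NTC macrophages, while the unguided levels were 0, 0.281 and 0 CPM and 0.397, 0.858 and 0.846 CPM (difference 6.88, adjusted p = 0.0101). Atp7a, a copper transporter, rose in NTC cells from 5.11, 4.02 and 4.43 CPM to 78.7, 86.4 and 82.5 CPM, and was at 30.8, 44.1 and 12.3 CPM and 41.3, 34.6 and 32.6 CPM in unguided cells (difference 3.68, adjusted p = 0.0368). Card6, a caspase-recruitment protein, was at 0.186, 0.129 and 0.171 CPM and 12.9, 17.6 and 12.5 CPM against 3.25, 3.9 and 0.841 CPM and 4.62, 4.2 and 3.76 CPM (difference 4.9, adjusted p = 0.0368). Nr4a1, an immediate early factor, rose in NTC cells, from 0.306, 0.958 and 1.49 CPM to 9.29, 11 and 9.15 CPM, and fell in unguided cells, from 7.2, 8.14 and 3.35 CPM to 1.5, 3.03 and 1.5 CPM (difference 5.05, adjusted p = 0.0432).

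Most of these calls depend on the fit. With the replicate number as a block, Ngp, S100a9 and Cd5l passed, and Gsr, Camp, Atp7a, Card6, Nr4a1 and Mpo did not, with adjusted p from 0.0501 to 0.0573; with a block for the unguided lines alone all 9 passed. Leaving out any 1 NTC library, unguided progenitor replicate 1, or unguided macrophage replicate 1 or 2 ended the calls of Mpo, Atp7a, Card6 and Nr4a1, and leaving out unguided progenitor replicate 2 ended that of Nr4a1. Camp was not called without NTC progenitor replicate 2 or 3, any NTC macrophage library, or unguided macrophage replicate 1 or 2. With a filter of mean CPM above 5, S100a9, Cd5l, Atp7a, Card6 and Mpo were not called, and Camp and Nr4a1 did not pass that filter. With the deposited values Cd5l, Atp7a, Card6, Nr4a1 and Mpo were not called. Scaling by library totals ended the calls of Atp7a, Card6, Nr4a1 and Mpo, and the fit without trend that of Mpo. Only Ngp kept its call in all 27 alternatives. The sizes depend on the 0.1 CPM added: with 1 CPM in its place the difference was -4.79 for Ngp, -4.46 for S100a9, 5.24 for Cd5l, -3.4 for Camp, 3.09 for Card6 and 3.77 for Nr4a1, and Mpo did not pass (adjusted p = 0.0502, and 0.0588 with 0.5 CPM).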

How the results depend on the processing

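The 24 genes with the largest changes kept their direction and call under every alternative run for them. They were picked from these data for the size of their change, so this does not test them. Most failed the filter, and so were not run, when any 1 library of their higher group was left out. Against 2457 DEGs, a fold limit of 1 gave 5210 (2496 higher, 2714 lower), and the NTC macrophages at 0 uM baricitinib, from another experiment and sequencing site, gave 1738, 1377 of them the same genes in the same direction, with 754 lower. Leaving out 1 library gave 2053 to 2202. The other alternatives ran from 1852 (mean CPM above 5) to 2691 (library totals, 2160 of them shared); a replicate block gave 2464, although the deviations of libraries with the same number correlated at only 0.01, -0.07 and 0.16 across genes. Setting erythroid and megakaryocyte genes aside, added after the data were seen, gave 2450. Over the 150 genes named with a log2FC, 111 kept direction and call in the alternatives run for them (65 of the 95 that passed the filter in all 22), and of their 3132 values 41 no longer passed, 12 newly passed and 13 changed sign. Scaled by library totals, Cd34 was at -0.086, and Cdkn1b, E2f1 and Tfeb fell under the fold limit. When 1 library was left out, Ccl3 ran from -0.75 to 0.21 and Ccl4 from -0.95 to 0.31, above 0 without progenitor replicate 2 (0.21 and 0.31) or 3 (0.14 and 0.064). With the macrophages at 0 uM baricitinib C1qb, a DEG here, was at -1.9, and of genes that were not DEGs Apoe was at -1.5, Cd34 at -0.36, Flt1 at 0.50, Hoxb8 at 0.33, Pcna at 0.12, Tmem119 at 1.2 and Ywhah at 1.04. With these macrophages Mki67, Mcm5, Rrm2, Kif11, Ccnd2, Rb1, Mxd4, Id1, E2f1, Tfeb, Siglecf and Alas2 were no longer DEGs, and Abca1, C1qa, Epor, Fcrls, Nr4a1, P2ry12 and Tyrobp were below the filter. The log2FC of Apoc2, Ccnb2, Ccnd1, Cdc20, Cdk6, Csf3r, Cxcl10, Idi1, Ifit3, Ly6c2, Maf, Myc, Plk1, Psap, Psat1, Slc16a1, Spp1 and Trf moved by more than 1.5 times and these stayed DEGs; that of Ccl3, Ccl4, Csf2ra, Csf2rb, Ddit3, Fcgr2b, Kdm5d, Max, Slpi, Spi1 and Tlr4, not DEGs with either set, moved by as much, and Aldoc became a DEG. With 1 CPM added in place of 0.1, Alas2, Cxcl10, Epor, Gfap, Il12a, Itgb3 and Siglecf missed the fold limit. Near the fold limit, Nop2 was not a DEG without progenitor replicate 1 (-1.997) or macrophage replicate 3 (-1.97), nor Fos without progenitor replicate 1 (1.998), Cxcl10 without progenitor replicate 2 (-1.998) or macrophage replicate 3 (-1.87), and Siglecf without macrophage replicate 3 (-1.98). Atf4 became a DEG without progenitor replicate 1 (-2.11), with scaling by library totals (-2.35) and with the macrophages at 0 uM baricitinib (-2.1). Apoe became one without macrophage replicate 1 (2.6). Hbb-bs lost its call without any library but macrophage replicate 2, and Hba-a1 without progenitor replicate 2 or macrophage replicate 1. The cause of these changes was not tested. Of 782 list medians under alternatives 239 moved by more than the spread between replicates.

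The 9 genes that differed from the unguided cells depend far more on the processing. No filter gave 31, mean CPM above 5 gave 2, library totals 5, deposited values 4, array weights 1385 and a replicate block 3 (Ngp, S100a9 and Cd5l). A replicate block for the unguided lines only, added after the data were seen, gave 656; the deviations of unguided libraries with the same number correlated at -0.07, 0.31 and 0.04. Leaving out 1 library gave 3 to 1497. Without NTC progenitor replicate 1, 2 or 3 it was 5, 6 and 4, and without NTC macrophage replicate 1 or 3 it was 3 and 6 (without replicate 2 it was 8, of which 3 were the same). Without unguided progenitor replicate 2 or 3 it was 21 and 1497, and without unguided macrophage replicate 1, 2 or 3 it was 4, 4 and 179. A trend-free fit and quantile normalization each gave 13, and pseudocounts of 0.5 and 1 gave 10 and 12. Of 238 values of these 9 differences under alternatives 67 no longer passed the threshold, all in the same direction; the cause was not tested. No counts are in the table, so values near 0 cannot be given a counting error.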

Other observations

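Macrophage libraries of the NTC group differed from each other in some abundant genes beside those of brain and blood. Fth1 was at 6906, 14090.1 and 33159 CPM in replicates 1, 2 and 3, H2-D1, a class I histocompatibility gene, at 1369, 2034 and 5884 CPM, and Itm2b, a membrane protein, at 740.4, 1349.6 and 2931 CPM. Replicate 3 was highest in each. The ribosomal protein genes Rps29 (730.2, 119.8 and 510.4 CPM) and Rps28 (263, 58.3 and 192 CPM) were lowest in replicate 2, where they lay below the progenitors, and above them in replicates 1 and 3. Among low genes Ddx41, an RNA helicase, was at 6.16, 24.6 and 0.883 CPM, on both sides of the progenitors. These genes were picked after their values were seen, and whether the spread is technical was not tested.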
